A study of Homo sapiens with 7 samples.

Results

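The genes described here are zinc finger genes from the clusters on the long arm of chromosome 19 (19q13), chosen by name from a list of 49 symbols. A gene was measured when at least 1 probe carried exactly 1 gene symbol and that symbol was on the list. By that rule 45 of the 49 genes were measured, by 73 probes, among 18646 named genes on the arrays. ZNF468, ZNF677, ZNF816 and ZNF836 had no such probe and have no values. ZNF610 and ZNF667 had a ratio on 4 of the 6 DNMT1 arrays and were not tested, which left 43 genes among the 17623 that were. In RefSeq all 49 lie on chromosome 19, in 2 blocks. The block nearer the centromere, from ZNF577 to ZNF331, is called proximal below and held 26 of the genes, and the block nearer the chromosome end, called distal, held 23.

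Most of these genes encode DNA-binding proteins with a row of C2H2 zinc fingers, many of them joined to a KRAB domain. The KRAB domain binds TRIM28 (KAP1), which brings the histone methyltransferase SETDB1 and HP1 proteins to the bound site, and much of this system acts on repeated elements. The genes themselves arose by repeated local duplication. Several of them carry dense promoter methylation in tumours, among them ZNF132, ZNF154, ZNF331, ZNF471, ZNF577, ZNF582, ZNF667 and ZNF677. DNMT1 copies DNA methylation onto the new strand after replication, and UHRF1 brings DNMT1 to that strand.

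RNA of 4 established human colorectal cancer cell lines was read on 7 microarrays with 2 dyes each. DLD1, HT29 and RKO cells carried 1 of 2 short hairpin RNAs (shRNAs) against DNMT1, numbered 49 and 51, which gives 1 array for each line and shRNA and 6 in all. The remaining array holds HCT116 cells with an shRNA against UHRF1, whose label gives a knockdown efficiency of 60%. That label also carries what reads as a day, and the DNMT1 labels carry none, so the time of knockdown may differ. On every array the other dye carried RNA of the same line with a non-silencing control. The knockdown RNA was labelled with Cy3 for shRNA 49 and otherwise with Cy5, so shRNA number and dye orientation cannot be told apart. The labels do not name separate cultures, so p-values measure the spread between arrays, which may be technical. In whole cultures, fewer cells of a type and less RNA per cell cannot be told apart either.

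The deposited values are log ratios, taken as log2, in which 1 is a 2-fold difference. DNMT1 itself, with 1 probe, read -1.97 and -2.17 for DLD1, -2.07 and -0.92 for HT29 and -3.27 and -2.35 for RKO (shRNA 49 first), or 10.4% to 52.8% of control. It lay below 0 on all 6 arrays, so the ratios were read as knockdown over control. This direction is likely and not settled by the labels. For the UHRF1 array the same reading is less certain, because its 4 UHRF1 probes read -3.10, -2.06, -0.18 and 0.68. Correlations between arrays were low, from -0.03 to 0.26. The 2 arrays of a line correlated at 0.25 in DLD1, 0.15 in HT29 and 0.21 in RKO. Arrays of different lines with the same shRNA against DNMT1 correlated at 0.19 to 0.26. Many probes held exactly the same ratio as other probes of their array, called a shared ratio below. Among the ratios of the chromosome 19 genes the shared portion was 65.6% under UHRF1 knockdown and 31.0% to 42.9% under DNMT1 knockdown. Why ratios are shared is not stated, and signal strength was not used here.

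The promoters of 6 genes are shown because the results turn on them. ZNF134, ZNF304 and ZNF550 had the highest means, ZNF416 is the listed gene next to both ZNF550 and ZNF134, ZNF154 is often methylated in tumours, and ZNF582 had the lowest mean. Each sequence runs 5′ to 3′ from 250 bases before to 50 bases after the gene's start, in RefSeq's GRCh38.p14, and capitals mark CpG, the dinucleotide that DNMT1 acts on.
ZNF134 (chr19:57613992-57614291, plus strand): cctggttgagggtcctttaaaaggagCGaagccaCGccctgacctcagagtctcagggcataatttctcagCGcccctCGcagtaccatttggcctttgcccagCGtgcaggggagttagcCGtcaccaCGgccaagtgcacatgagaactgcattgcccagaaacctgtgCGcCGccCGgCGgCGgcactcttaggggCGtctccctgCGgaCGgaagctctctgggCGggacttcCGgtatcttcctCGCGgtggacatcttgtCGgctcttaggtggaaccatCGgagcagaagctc
ZNF304 (chr19:57351021-57351320, plus strand): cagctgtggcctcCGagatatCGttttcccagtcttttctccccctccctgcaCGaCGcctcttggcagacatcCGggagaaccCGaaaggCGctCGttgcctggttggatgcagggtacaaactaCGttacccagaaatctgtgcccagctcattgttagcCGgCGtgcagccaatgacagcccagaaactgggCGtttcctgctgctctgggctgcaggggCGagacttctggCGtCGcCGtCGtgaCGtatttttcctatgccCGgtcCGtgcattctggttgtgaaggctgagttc
ZNF550 (chr19:57559814-57560113, minus strand): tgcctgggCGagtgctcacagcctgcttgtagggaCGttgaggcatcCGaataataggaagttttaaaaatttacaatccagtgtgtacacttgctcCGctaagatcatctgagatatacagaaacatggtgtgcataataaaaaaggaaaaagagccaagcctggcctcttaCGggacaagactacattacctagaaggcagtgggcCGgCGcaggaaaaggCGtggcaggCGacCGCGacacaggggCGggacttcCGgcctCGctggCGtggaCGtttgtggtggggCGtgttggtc
ZNF416 (chr19:57578862-57579161, minus strand): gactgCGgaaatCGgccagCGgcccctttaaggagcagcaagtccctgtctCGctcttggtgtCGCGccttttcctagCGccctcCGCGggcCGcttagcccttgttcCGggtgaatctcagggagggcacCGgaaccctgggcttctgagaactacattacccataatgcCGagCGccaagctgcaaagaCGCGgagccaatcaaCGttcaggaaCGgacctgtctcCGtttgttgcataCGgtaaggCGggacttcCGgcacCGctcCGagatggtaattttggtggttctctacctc
ZNF154 (chr19:57709155-57709454, minus strand): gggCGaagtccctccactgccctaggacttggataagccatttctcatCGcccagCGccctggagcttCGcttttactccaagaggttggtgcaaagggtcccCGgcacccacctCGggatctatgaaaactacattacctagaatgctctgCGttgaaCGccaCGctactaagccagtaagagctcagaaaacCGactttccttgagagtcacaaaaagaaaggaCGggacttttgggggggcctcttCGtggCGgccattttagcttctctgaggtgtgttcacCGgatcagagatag
ZNF582 (chr19:56393485-56393784, minus strand): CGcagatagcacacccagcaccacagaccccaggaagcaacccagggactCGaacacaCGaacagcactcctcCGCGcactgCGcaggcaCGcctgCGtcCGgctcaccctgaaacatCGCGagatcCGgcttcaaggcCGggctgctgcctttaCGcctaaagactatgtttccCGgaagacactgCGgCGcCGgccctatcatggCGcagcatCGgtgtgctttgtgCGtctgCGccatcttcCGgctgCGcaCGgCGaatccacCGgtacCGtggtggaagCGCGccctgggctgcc

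All 6 printed promoters hold CpG sites, from 14 in ZNF154 to 30 in ZNF582, with 21 in ZNF134, 20 in ZNF304, 17 in ZNF550 and 24 in ZNF416. Promoter sequences were found for 41 of the 49 genes, 53 sequences in all. Over these 53 the median was 25 CpG, against 14 over 35116 RefSeq promoters of the same length, and the median of observed over expected CpG was 0.861 against 0.579. The 3 genes with the highest means were not those with the most CpG. By the CpG count of a gene's richest promoter, ZNF134 stood at place 30 of 41, ZNF304 at 32 and ZNF550 at 35. ZNF582 stood at place 6. The next highest means were those of ZNF528, at place 12 with 27 CpG, and ZNF256, with 26 CpG. Across the 36 tested genes with a promoter, Spearman's rho between CpG count and mean ratio was -0.30, a description across genes that are not independent replicates. DNA methylation was not measured in these files.

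Short sequence motifs were counted on both strands. The ETS core CCGGAAG was found in 27 of the 53 promoters (50.9%), against 10.3% of all promoters, 57.9% of 38 promoters of other zinc finger genes within the blocks and 30.1% of 176 of those elsewhere on chromosome 19. The YY1 core GCCATNTT was found in 20.8%, against 6.58%, 13.2% and 7.39% of the same 3 sets. The GC box GGGCGG was found in 54.7%, against 45.0%, 78.9% and 63.6%. The CRE TGACGTCA was found in 0 of 53, against 1.85%, 5.26% and 4.55%. After the promoters had been read, 2 further strings were chosen because they recurred, so their counts among these genes are a description. ACTACATT was found in 7 of 21 distal promoters (33.3%) and 1 of 32 proximal promoters, against 0.991% of all promoters, 21.1% of the other zinc finger promoters within the blocks and 11.4% of those elsewhere on chromosome 19. GGGACTT was found in 10 of 21 distal promoters (47.6%) and 0 of 32 proximal ones, against 4.95%, 28.9% and 3.41% of those sets, and it overlapped the ETS core in 7 promoters. Both strings are in the printed promoters of ZNF550, ZNF416 and ZNF154, whose ratios differed widely. A match is not a binding site.

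Across DLD1, HT29 and RKO, the zinc finger genes as a group moved little under DNMT1 knockdown, and 1 gene, ZNF134, rose. The median of the all-lines means of the 43 tested genes was 0.11, beside 0.03 over all 17623 genes, and the mean lay above 0 for 34 of 43 genes (79.1%), beside 55.2% of all genes. The excess rested on single arrays: without RKO shRNA 49 the mean lay above 0 for 25 of 43 genes (median 0.03, as over all genes), and without HT29 shRNA 51 for 25 of 45 (median 0.04). In limma's fit with Benjamini-Hochberg adjustment over all genes, 1 of 43 was higher and 0 were lower, against a background of 0.380% higher and 0.0170% lower. That background rests on 67 genes higher, a count that ran from 8 without RKO shRNA 49 to 168 without DLD1 shRNA 51. At an unadjusted p under 0.05 the count was 6 of 43, against a background of 11.4%. A mean at least 2-fold higher was seen for 3 genes, ZNF134, ZNF304 and ZNF550, against 3.88% of all genes. A mean at least 2-fold lower was seen for ZNF582 alone among the 43, against 0.477%.

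**Figure D1:**
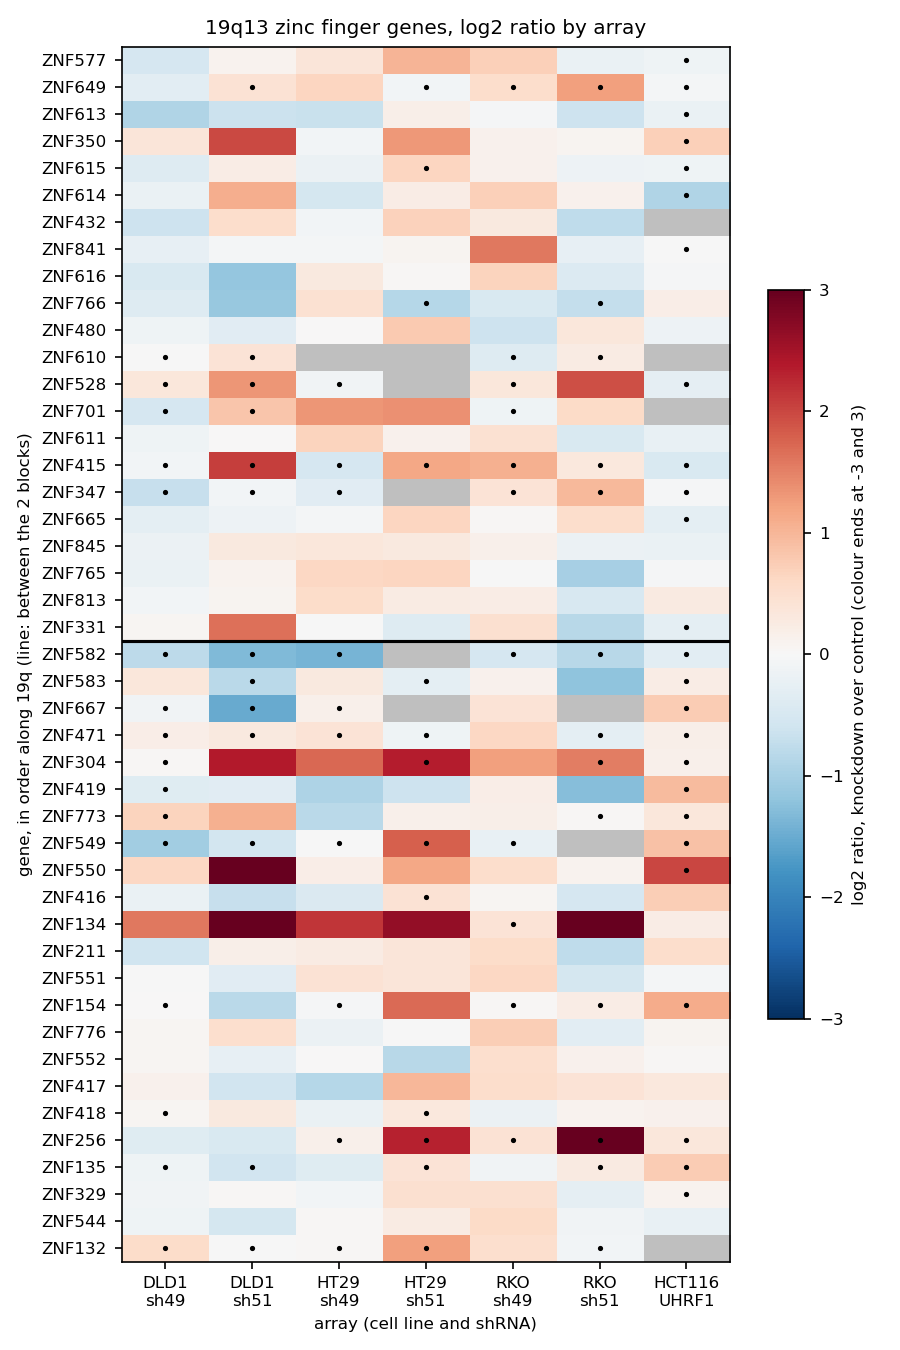
Log2 ratio (knockdown over control, colour) of the 45 measured genes on each of the 7 arrays, in chromosomal order. The highest ratio is that of ZNF550 in DLD1 with shRNA 51, at 5.62, and ZNF134 is high on most DNMT1 arrays.

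**Figure D2:**
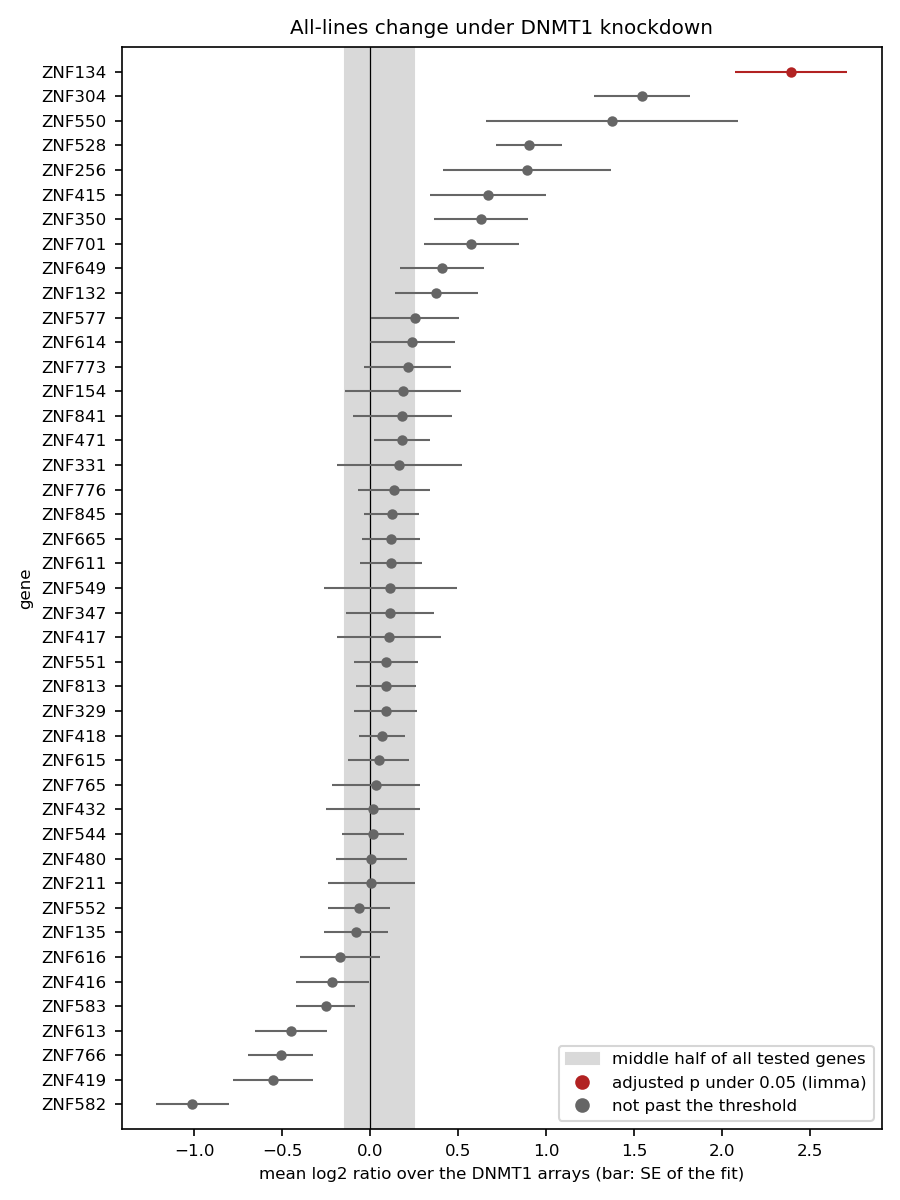
All-lines mean log2 ratio of the 43 tested genes with standard errors of the fit. ZNF134 at 2.39 is the gene past the adjusted threshold, and most other means lie close to 0.

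ZNF134 encodes a zinc finger protein of the distal block. Its log2 ratios were 1.58 and 3.54 for DLD1, 2.14 and 2.63 for HT29 and 0.41 and 4.04 for RKO, with shRNA 49 given first in each line. All 6 lay above 0, and in each line the shRNA 51 array was the higher. The mean was 2.39 ± 0.32 (SE, n = 6), or 5.24-fold (limma adjusted p = 0.0469). Its 2 probes differed by at most 0.40 on any array. Both probes held shared ratios in RKO with shRNA 49, the array with the lowest value. The call was lost when 1 of 4 arrays was left out: DLD1 shRNA 49 (mean 2.34, adjusted p = 0.188), HT29 shRNA 49 (2.17, 0.192), RKO shRNA 49 (2.68, 0.106) or RKO shRNA 51 (2.17, 0.0504). It was also lost without the shRNA term (adjusted p = 0.182), while the mean over the settings tried stayed between 1.38 and 3.40.

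ZNF304 encodes a KRAB zinc finger protein of the distal block. It read 0.04 and 2.38 for DLD1, 1.72 and 2.35 for HT29 and 1.22 and 1.53 for RKO. Those ratios lay above 0 on all 6 arrays and at about 0 in DLD1 with shRNA 49. There its 2 probes lay on opposite sides of 0, at 0.25 and -0.16. In RKO with shRNA 49 they read 1.92 and 0.52. With shRNA 51, HT29 and RKO each had a ratio from 1 probe alone. The mean was 1.54 ± 0.27 (SE, n = 6), or 2.91-fold, and missed the threshold (limma adjusted p = 0.111). On 3 of its arrays every ratio was shared.

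ZNF550, a neighbour of ZNF416 in the distal block, read 0.62 and 5.62 for DLD1, 0.19 and 1.17 for HT29 and 0.52 and 0.12 for RKO. The mean of 1.37 ± 0.71 (SE, n = 6, limma adjusted p = 0.533) was set largely by DLD1 with shRNA 51, and without that array it was 0.55. ZNF134, ZNF304 and ZNF550 were the 3 of 43 genes above 0 on every DNMT1 array, against a background of 4.20% of all genes.

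Of the other 5 genes among the 8 highest means, none passed the threshold in limma's fit. ZNF528 read 0.34 and 1.33 for DLD1, -0.10 for HT29 with shRNA 49 and 0.33 and 1.94 for RKO (mean 0.90 ± 0.19, SE, n = 5, limma adjusted p = 0.188). Of its 5 ratios 4 were shared, and HT29 with shRNA 51 had none. ZNF256 (BMZF3), which binds TRIM28, read -0.36 and -0.46 for DLD1, 0.15 and 2.32 for HT29 and 0.44 and 3.24 for RKO (mean 0.89 ± 0.48, SE, n = 6, limma adjusted p = 0.542). It was high on the shRNA 51 arrays of HT29 and RKO and below 0 on both DLD1 arrays. All 4 of its ratios in HT29 and RKO were shared, and those in DLD1 were not. Without DLD1 shRNA 51 its mean was 1.42 and passed (adjusted p = 0.0480), and without RKO shRNA 51 it was 0.53 (adjusted p = 0.669).

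ZNF415 read -0.09 and 2.07 for DLD1, -0.51 and 1.16 for HT29 and 1.07 and 0.32 for RKO, all of them shared ratios (mean 0.67 ± 0.33, SE, n = 6, limma adjusted p = 0.509). ZNF350 (ZBRK1), a KRAB repressor of GADD45A that binds BRCA1, read 0.36 and 1.98 for DLD1, -0.08 and 1.30 for HT29 and 0.14 and 0.08 for RKO (mean 0.63 ± 0.27, limma adjusted p = 0.442). It was highest on the shRNA 51 arrays of DLD1 and HT29. ZNF701 read -0.51 and 0.84 for DLD1, 1.32 and 1.36 for HT29 and -0.13 and 0.56 for RKO (mean 0.57 ± 0.27, limma adjusted p = 0.488), with its 2 highest ratios in HT29. Leaving out 1 array lowered the mean of ZNF415 to 0.38 (RKO shRNA 49) or 0.44 (DLD1 shRNA 51) and that of ZNF701 to 0.32 (HT29 shRNA 49).

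**Figure D3:**
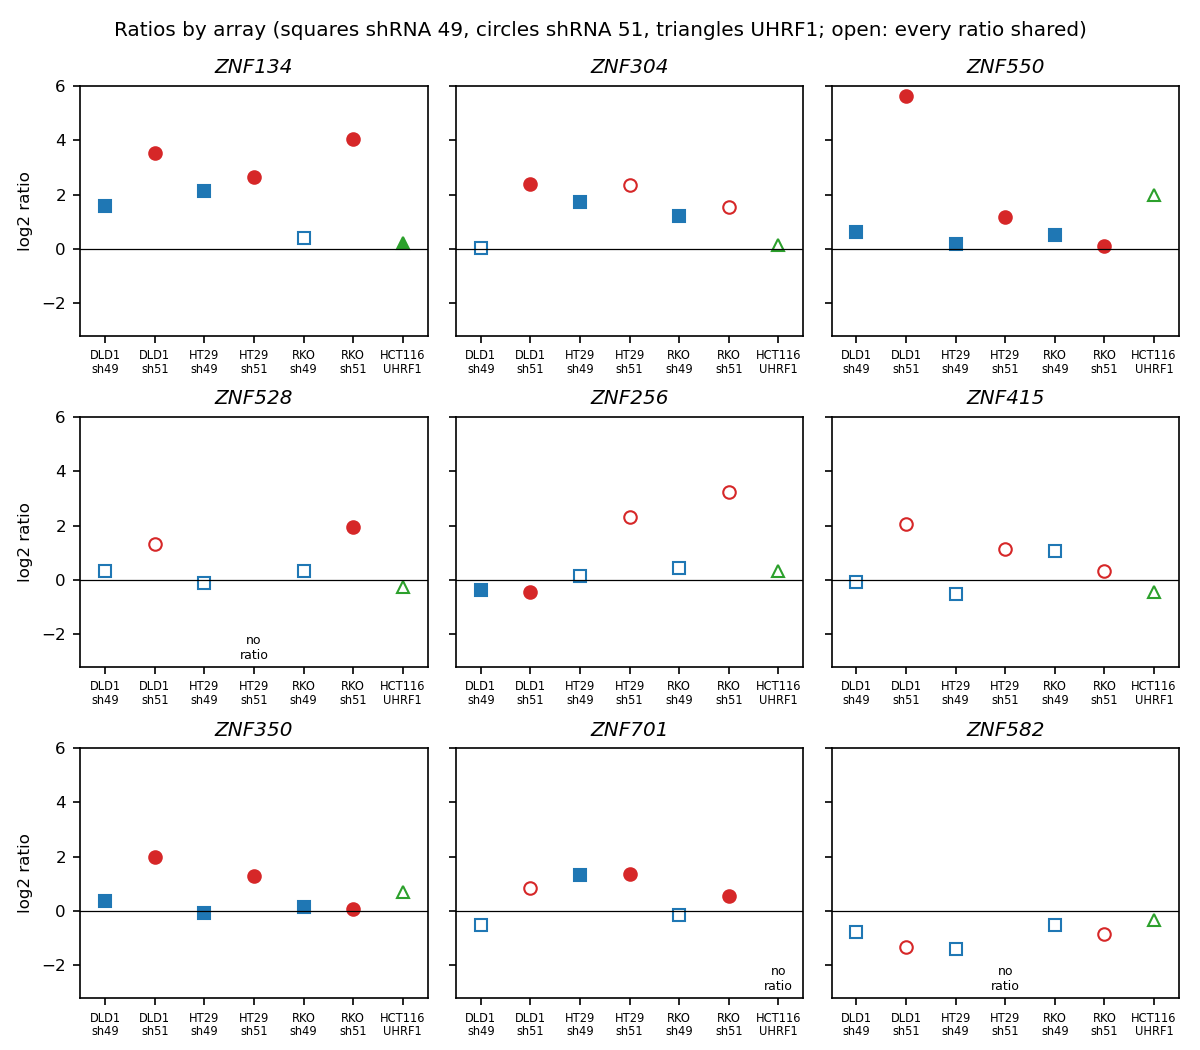
Log2 ratio on each array for the 8 genes with the highest all-lines means and for ZNF582, the lowest, with squares for shRNA 49, circles for shRNA 51, triangles for UHRF1 and open symbols where every ratio was shared. ZNF134 and ZNF304 are above 0 on all 6 DNMT1 arrays, whereas the mean of ZNF550 rests on 1 array at 5.62.

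At the low end were ZNF582, ZNF419, ZNF766 and ZNF613. ZNF582 read -0.78 and -1.33 for DLD1, -1.40 for HT29 with shRNA 49 and -0.51 and -0.84 for RKO (mean -1.01 ± 0.21, SE, n = 5, limma adjusted p = 0.184). It lay below 0 on all 5 arrays with a value, as 3.15% of all genes did, and every one of those ratios was shared. ZNF419 read -0.35 and -0.33 for DLD1, -0.94 and -0.63 for HT29 and 0.20 and -1.27 for RKO (mean -0.55 ± 0.23, limma adjusted p = 0.426). ZNF766 read -0.38 and -1.14 for DLD1, 0.46 and -0.85 for HT29 and -0.45 and -0.71 for RKO (mean -0.51 ± 0.18, limma adjusted p = 0.363). Each of these 2 genes lay above 0 on 1 array. ZNF613 read -0.91 and -0.66 for DLD1, -0.68 and 0.19 for HT29 and -0.04 and -0.62 for RKO (mean -0.45 ± 0.20, limma adjusted p = 0.468). In HT29 with shRNA 51 its 2 probes read -0.58 and 0.95. The all-lines means of the 2 probes were -0.68 and -0.22 for ZNF613 and -0.22 and -0.88 for ZNF419.

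The means of the other tested genes outside the tumour list below lay between those groups, none past the threshold. Among ZNF135, ZNF211, ZNF329, ZNF347, ZNF416, ZNF417, ZNF418, ZNF432, ZNF480, ZNF544, ZNF551, ZNF552, ZNF583, ZNF611, ZNF615, ZNF616, ZNF649, ZNF665, ZNF765, ZNF773, ZNF776, ZNF813, ZNF841 and ZNF845 they ran from -0.25 (ZNF583) to 0.41 (ZNF649, a KRAB repressor, limma adjusted p = 0.583). ZNF417, known for repressing HERV-K elements with its paralog ZNF587, had a mean of 0.11, and so had ZNF611, known for binding SVA elements. ZNF614 read -0.19 and 1.08 for DLD1, -0.54 and 0.23 for HT29 and 0.72 and 0.12 for RKO (mean 0.24 ± 0.24, limma adjusted p = 0.764). The untested ZNF610 read -0.01 and 0.42 for DLD1 and -0.39 and 0.25 for RKO.

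Of the 8 genes known for promoter methylation in tumours, 7 were measured and 6 tested, and 0 passed the threshold in limma's fit, where 0.380% of all genes were higher. At an unadjusted p under 0.05 there was 1, ZNF582, which was low, against 11.4% of all genes. Their median mean was 0.18 and 5 of 6 means lay above 0, beside 0.03 and 55.2% over all genes. ZNF154 read 0.01 and -0.82 for DLD1, -0.04 and 1.70 for HT29 and 0.03 and 0.22 for RKO (mean 0.18 ± 0.33, limma adjusted p = 0.875). Its mean rested on HT29 with shRNA 51, without which it was -0.15. On that array its 2 probes read 0.77 and 2.64. ZNF331, an imprinted gene in some tissues, read 0.07 and 1.66 for DLD1, -0.01 and -0.39 for HT29 and 0.49 and -0.83 for RKO (mean 0.16 ± 0.36, limma adjusted p = 0.899). It was high on 1 array, DLD1 with shRNA 51, and without that array the mean was -0.22.

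ZNF132 read 0.56 and -0.01 for DLD1, 0.04 and 1.22 for HT29 and 0.51 and -0.08 for RKO (mean 0.37 ± 0.24, limma adjusted p = 0.606). ZNF577 read -0.50 and 0.12 for DLD1, 0.37 and 1.02 for HT29 and 0.72 and -0.21 for RKO (mean 0.25 ± 0.25, limma adjusted p = 0.756). Both were highest in HT29 with shRNA 51. For ZNF132 the ratio was shared on 5 of 6 DNMT1 arrays, that highest one included. ZNF471 read 0.19 and 0.28 for DLD1, 0.41 and -0.12 for HT29 and 0.63 and -0.30 for RKO (mean 0.18 ± 0.16, limma adjusted p = 0.718). On 5 of 6 DNMT1 arrays every ratio of ZNF471 was shared. ZNF667 read -0.09 and -1.51 for DLD1, 0.16 for HT29 and 0.42 for RKO, both with shRNA 49, and was not tested. When 1 array was left out the mean ran from 0.15 to 0.50 for ZNF132, from 0.08 to 0.42 for ZNF577 and from 0.09 to 0.26 for ZNF471. With shRNA 51, 1 of 7 genes of this list was at least 2-fold higher in DLD1 (ZNF331), against 13.2% of all genes. In HT29 it was 3 of 5 (ZNF132, ZNF154 and ZNF577), against 11.5%. On the other DNMT1 arrays it was 0. At least 2-fold lower were 2 of 7 in DLD1 with shRNA 51 and 1 of 7 in HT29 with shRNA 49, against 4.55% and 3.63%.

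Within single lines, no chromosome 19 gene passed the threshold in limma's fit, where the background was 0.0227% higher in DLD1, 0.0170% in HT29 and 0.0454% in RKO. At an unadjusted p under 0.05 the counts were 9 in DLD1, 4 in HT29 and 4 in RKO, against 8.80%, 8.03% and 12.5% of all genes. ZNF134 averaged 2.56, 2.39 and 2.22 for DLD1, HT29 and RKO (each ± 0.56 SE, n = 2, limma adjusted p = 0.355, 0.465 and 0.306). Its line means were close together, whereas those of ZNF550 were 3.12, 0.68 and 0.32 and those of ZNF256 were -0.41, 1.23 and 1.84. ZNF549 read -1.04 and -0.54 for DLD1, -0.01 and 1.80 for HT29 and -0.22 for RKO with shRNA 49. It differed between HT29 and DLD1 by 1.68 ± 0.49 (limma adjusted p = 0.847, unadjusted 0.0288). All 5 of its ratios on the DNMT1 arrays were shared. The F test over the lines called 0 of 43 genes, and 0 of all 17623. It gave an unadjusted p under 0.05 for 0 of 43, against 6.45% of all genes, and its lowest adjusted p among the 43 was 0.739. The pairwise differences called 0 of the 43 as well, and 0 of all 17623. Their unadjusted p was under 0.05 for 4 genes between HT29 and DLD1 (ZNF549, ZNF616, ZNF701 and ZNF773). It was so for 2 between RKO and DLD1 (ZNF256 and ZNF347) and for 0 between RKO and HT29. The shares over all genes at that threshold were 5.68%, 6.83% and 6.93%.

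Between the shRNAs 0 of 43 genes passed in limma's fit, and so did 0 of all 17623 genes. Among the 43, 3 had an unadjusted p under 0.05, against 11.2% of all genes. ZNF134 averaged 1.38 with shRNA 49 and 3.40 with shRNA 51, a difference of 2.02 ± 0.64 (SE, limma adjusted p = 0.419, unadjusted 0.0270). The others were ZNF528, higher with shRNA 51 by 1.30 ± 0.39 (limma adjusted p = 0.427), and ZNF583, with a difference of -1.02 ± 0.30 (limma adjusted p = 0.409). Whether such differences follow the hairpin or the dye cannot be told apart.

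Array by array, the number of these genes at least 2-fold higher varied from 1 to 11. It was 1 of 45 in DLD1 with shRNA 49 and 9 of 45 with shRNA 51 (background 2.93% and 13.2%). In HT29 it was 3 of 44 and 11 of 40 (background 3.63% and 11.5%), and in RKO 3 of 45 and 5 of 43 (background 5.32% and 13.3%). At least 2-fold lower were 1 and 4 genes in DLD1 (background 2.04% and 4.55%), 1 and 0 in HT29 (3.63% and 4.68%) and 0 and 2 in RKO (2.47% and 8.73%). HT29 with shRNA 51 and RKO with shRNA 49 had the highest medians over the genes, 0.39 and 0.40, beside 0.05 and 0.00 over all genes. Other zinc finger genes also lay above 0 on these arrays, with medians of 0.26 and 0.42 for those elsewhere on chromosome 19, 0.23 and 0.13 for those on other chromosomes, and 0.19 and 0.23 for the others within the blocks. The medians on the other DNMT1 arrays lay between -0.13 and 0.03.

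The UHRF1 array has no replicate and gives no test. On it 2 of 41 genes were at least 2-fold higher (background 4.62%) and 0 lower (background 2.32%), and with the sign turned these counts would change places. These were ZNF550 at 1.99 and ZNF154 at 1.12, the latter from probes at 1.75 and 0.48. Both rested on shared ratios, and with shared ratios left out 16 genes had a value and none was past 2-fold. Next were ZNF419 at 0.94 and ZNF549 at 0.87, and the lowest were ZNF614 at -0.90 and ZNF415 at -0.46. Of the 3 genes with the highest means under DNMT1 knockdown, ZNF550 was thus high there, while ZNF134 read 0.23 and ZNF304 0.14.

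The blocks lay on opposite sides of 0 on the UHRF1 array, whose direction is less certain. Read as knockdown over control, proximal genes lay mostly below 0 and distal genes above. The ratio was above 0 for 19 of 22 distal genes (median 0.28) and for 3 of 19 proximal genes (median -0.13), beside 53.8% of all genes. With shared ratios left out it was above 0 for 6 of 9 distal and 2 of 7 proximal genes, with medians of 0.08 and -0.06. With the sign of the array turned, 3 of 22 distal and 16 of 19 proximal genes would lie above 0, beside 46.2% of all genes. In DLD1 with shRNA 49, 12 of 23 distal and 3 of 22 proximal genes lay above 0, beside 47.9% of all genes. With shRNA 51 in DLD1 the order was the other way, 9 of 23 distal and 15 of 22 proximal, beside 53.0%. Without shared ratios DLD1 had 6 of 12 distal and 1 of 17 proximal genes above 0 with shRNA 49. With shRNA 51 it then had 9 of 16 and 10 of 16 (medians 0.03 and 0.06), so that reversed order nearly went. In HT29, all ratios kept, 12 of 23 distal and 10 of 21 proximal (shRNA 49) and 16 of 21 and 16 of 19 (shRNA 51) lay above 0. In RKO these were 19 of 23 and 16 of 22, and 10 of 21 and 10 of 22. The split between blocks was noticed in the data and was not tested.

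**Figure D4:**
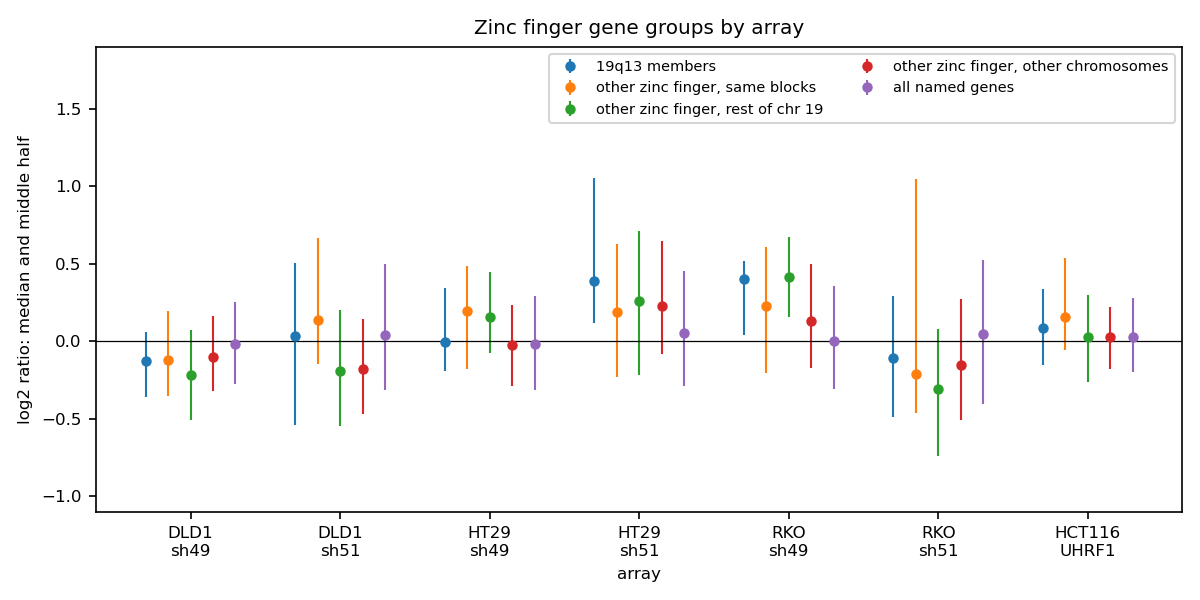
Median log2 ratio on each array over the listed genes and over comparison groups of genes. The median of the listed genes is highest in RKO with shRNA 49, at 0.40, and in HT29 with shRNA 51, at 0.39.

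Over the DNMT1 arrays the blocks had nearly the same median. The 21 tested proximal genes had a median mean of 0.12, a range from -0.51 to 0.90, and 0 calls, and the 22 tested distal genes had a median of 0.10, a range from -1.01 to 2.39, and 1 call. The 3 means past 2-fold higher were all distal. Adjacent listed genes, which can have unlisted genes between them, were not more alike than other pairs of listed genes in the distal block. Pairs were formed among the 19 distal and 17 proximal genes with a ratio on all 7 arrays, the UHRF1 array included. In the distal block the median over pairs of the mean absolute difference between ratios was 0.766 for 16 adjacent pairs. It was 0.668 for all 171 pairs. In the proximal block the values were 0.551 for 10 adjacent pairs and 0.565 for all 136. The adjacent listed genes ZNF416 and ZNF134, with the unlisted ZIK1 and ZNF530 between them, differed by 2.31 on average over 7 arrays. ZNF416 itself had a mean of -0.22, beside 1.79 for ZIK1 and 0.35 for ZNF530. ZNF611 and ZNF813 were the most alike proximal pair, at 0.156. Genes of these clusters resemble each other in sequence, and whether a probe also reads a paralog's RNA was not tested.

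Genes that share the blocks but are not on the list gave the closest comparison. Other zinc finger genes were found by symbol, so antisense RNAs and pseudogenes, such as ZNF350-AS1 and ZNF818P, are counted among them. Genes with other symbols, such as PEG3, are not. Of 41 other zinc finger genes within the blocks, 1 was called, ZSCAN18 at 2.42 ± 0.26 (SE, n = 6, limma adjusted p = 0.0207), and their median was 0.11 with 70.7% above 0. Of 157 zinc finger genes elsewhere on chromosome 19, 1 was called, ZNF229 at 2.03 ± 0.17 (n = 5, limma adjusted p = 0.0184), with a median of 0.05 and 54.8% above 0. Of 284 on other chromosomes 0 were called (22 at an unadjusted p under 0.05), with a median of 0.03 and 53.9% above 0. Over all genes 0.380% were called higher, 0.0170% were called lower and 11.4% had an unadjusted p under 0.05. ZIK1, a zinc finger gene between ZNF416 and ZNF134 whose symbol does not follow the pattern used to find the others, read 0.83 and 2.64 for DLD1, 1.28 and 2.84 for HT29 and 0.49 for RKO with shRNA 49. Its mean was 1.79 ± 0.19 (n = 5, limma adjusted p = 0.0390). RKO with shRNA 51, where ZNF134 was highest, gave no ratio for ZIK1, and on the UHRF1 array ZIK1 read 1.53 beside 0.23 for ZNF134.

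**Figure D5:**
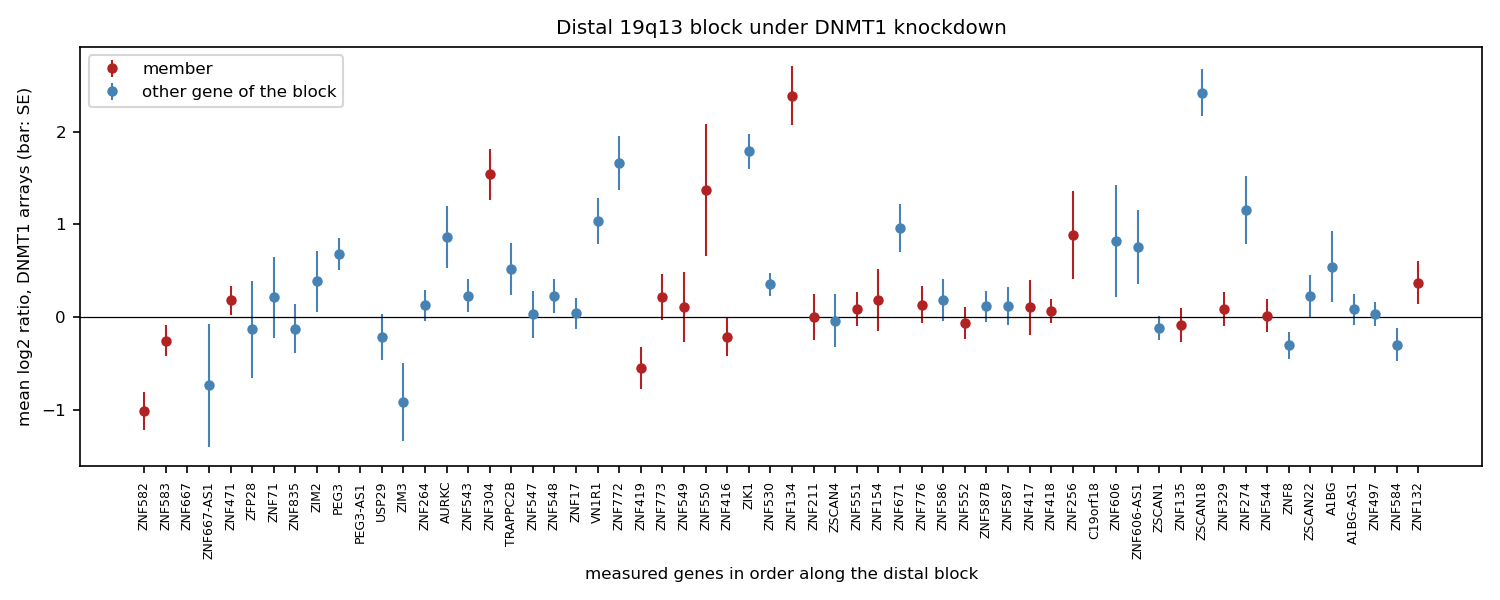
All-lines mean log2 ratio, with standard errors of the fit, along the distal block in RefSeq gene order, with the listed genes (members) in red and other genes in blue. The highest means are those of ZSCAN18 at 2.42, ZNF134 at 2.39, ZIK1 at 1.79, ZNF772 at 1.66 and ZNF304 at 1.54, with lower genes such as ZNF416 (-0.22) between them.

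For genes linked to KRAB repression there was no call, and calls were rare over all genes. The 20 tested were mostly corepressor genes, with ZFP57, itself a KRAB zinc finger gene, among them. In limma's fit 0 of the 20 passed, beside 0.380% higher and 0.0170% lower over all genes. An unadjusted p under 0.05 was seen for 1 of them, against 11.4% of all genes (CBX5, an HP1 protein, at -0.37, adjusted p = 0.424). TRIM28 read 0.01 (adjusted p = 0.992). Of 9 epithelial, 8 fibroblast or endothelial and 5 haematopoietic marker genes tested, 0 passed. At an unadjusted p under 0.05 there were 1, 2 and 1, beside the same shares over all genes. The ratios show a change in such markers and not their level, so the cell type could not be checked by level.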

How the data were processed

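The authors deposited 1 log ratio per probe and array, used here as log2. The base was taken from the range. Per the submitters' processing notes limma was used, in an unstated version. For background correction, normalization, direction and build, nothing is stated in the sources used here. Array medians lay between -0.02 and 0.02, so some centring had been done, of unknown kind. Of 41000 probes, 29341 carried 1 gene symbol, 33 several and 11626 none, and probes of a gene were averaged. Depth does not apply, and the number of arrays limits the precision. Dim probes were not filtered, since signal strength was not used here.

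Genes with a ratio on at least 5 of 6 DNMT1 arrays were fitted in R 4.3.3 with limma 3.58.1 (lmFit and eBayes, two-sided, Benjamini-Hochberg over all genes tested, threshold 0.05). The all-lines mean was set against 0 with the shRNA number as a centred covariate and with line as random block (duplicateCorrelation, 0.165), so the difference between shRNAs is not part of its spread. For comparing lines and shRNAs, each line had its own coefficient beside the shRNA term. The replicate number is the shRNA number in the labels, which is how the arrays of different lines pair. The UHRF1 array was described by 2-fold counts. The fits were tested on simulated data.

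Genes given in full were those past the threshold, the 8 highest and 4 lowest means, the 4 highest and 2 lowest on the UHRF1 array, the 3 widest between lines and between shRNAs, and the tumour-methylated list. Other genes outside that rule were named after their values were seen. The genes, lists and tests were chosen with earlier results of these data known. Alternatives covered the shRNA and line terms, scaling, shared ratios, probe summaries, the filter, leaving out each array, and each shRNA alone. Promoters came from RefSeq's GRCh38.p14 table, matched by symbol. The table gave no sequence for 8 genes.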

Additional observations from a re-analysis of the deposited data

How the results depend on the processing

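ZNF134 stayed above 0 under all 19 alternatives run for it and passed the threshold in 8 of them, with an adjusted p from 0.0112, with shared ratios left out, to 0.350, on the shRNA 49 arrays alone. The count of genes called higher across lines was 1. It became 0 with no replicate block (no shRNA term, ZNF134 adjusted p = 0.182), with each line's arrays averaged before the fit (0.0566), with quantile normalization (0.142), with each shRNA alone (0.350 and 0.171) and with each probe on its own (0.0834 and 0.0520). Leaving out 1 array at a time gave 0 to 2 calls, the 2 being ZNF134 and ZNF256 without DLD1 shRNA 51. No gene was called lower under any alternative run. Of the genes near 0, ZNF549 turned to -0.000259 with no replicate block, -0.038 with lines averaged, -0.030 with quantile normalization and -0.42 with shRNA 49 alone, and ranged from -0.43 to 0.67 when 1 array was left out. ZNF614 turned to -1.37e-05 with shRNA 49 alone and ZNF471 to -0.048 with shRNA 51 alone. ZNF331 turned to -0.14 with its second probe alone and ranged from -0.22 to 0.43 when 1 array was left out, and ZNF154 from -0.15 to 0.48. On the UHRF1 array the 2 genes past 2-fold higher became 0 with shared ratios left out, when fewer genes had a value. ZNF304 could not be tested in that setting. Counts within lines, between lines and between shRNAs stayed at 0 under the alternatives run. Between lines and between shRNAs, the fit given above called 0 of all 17623 genes. The cause of these changes was not tested. Over all genes the count called higher was 67. It was 10, 7 and 28 without the shRNA term, with lines averaged and with quantile normalization, and 5 and 13 with shRNA 49 or 51 alone. Leaving out 1 array gave 168, 105 and 135 without the shRNA 51 array of DLD1, HT29 or RKO, and 12, 18 and 8 without the shRNA 49 array.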
